A study of Mus musculus with 12 samples.

Results

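A set of genes that p53 is known to activate, 10 of the 24100 genes in the count table, was followed in immortalized mouse embryonic fibroblasts (MEFs) with and without RTF2. They were taken by name: Cdkn1a, Mdm2, Ccng1, Sesn2, Bax, Bbc3, Gdf15, Trp53inp1, Phlda3 and Eda2r. Entrez Gene numbers in the table were matched to RefSeq symbols, and all 10 members passed the filter on low counts that left 14263 genes for testing. RTF2 is a protein of the replisome, and RNA-seq was used to ask whether transcription changes when it is lost.

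The 12 libraries form 4 groups of 3. WT line 1 and WT line 2 were Rtf2+/+ MEFs, and RTF2-deficient line 1 and RTF2-deficient line 2 were Rtf2-/lox MEFs, which carry 1 null allele and 1 allele that Cre deletes. All 4 groups, the WT controls included, received a Cre retrovirus 72 hrs before RNA extraction. According to the study all were MEFs of mid-gestation embryos immortalized with a retrovirus for the SV40 large T antigen. The lines came from different mothers, and WT and RTF2-deficient MEFs of a line were littermates. A legend of the study calls the 3 libraries of a group technical replicates, so p-values measure the spread between sister libraries, and the 2 lines are the only biological replicates. The groups carry no p53 mutation in the labels. SV40 large T RNA was not analysed here.

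The transcription factor p53 is kept low by its target Mdm2, a ubiquitin ligase, and after DNA damage it is stabilized, binds pairs of a short half-site in DNA and activates genes for cell cycle arrest, apoptosis and repair. SV40 large T binds the DNA-binding domain of p53 and blocks this activation, while the bound p53 protein accumulates. Large T also binds the Rb family, and several p53 targets have a basal level that other transcription factors set.

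The promoter sequence is shown for the 4 members with a p53 half-site in the 250 bases before a RefSeq transcription start (GRCm38.p6), among them Bax, the single member that passed the test between genotypes. Of the 10 members, 9 matched an entry, and Trp53inp1 had none. Capitals mark the half-site consensus of p53, 10 bases long and palindromic, so that a search of 1 strand covers both. The sequences read 5′ to 3′ on the strand of the gene, and those of Cdkn1a, Mdm2 and Ccng1 are stretches around the half-sites.
Bax, chr7:45466899-45467148, minus strand: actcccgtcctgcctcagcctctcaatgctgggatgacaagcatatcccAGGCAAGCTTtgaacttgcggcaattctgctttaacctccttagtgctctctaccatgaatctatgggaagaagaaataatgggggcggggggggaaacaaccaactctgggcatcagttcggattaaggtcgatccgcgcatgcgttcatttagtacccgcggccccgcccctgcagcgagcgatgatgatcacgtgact
Cdkn1a, chr17:29090886-29090977, plus strand: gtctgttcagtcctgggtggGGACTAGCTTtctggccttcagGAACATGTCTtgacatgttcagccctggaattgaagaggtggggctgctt
Mdm2, chr10:117710895-117710964, minus strand: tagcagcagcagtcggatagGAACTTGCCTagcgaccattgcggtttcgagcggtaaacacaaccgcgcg
Ccng1, chr11:40755422-40755491, minus strand: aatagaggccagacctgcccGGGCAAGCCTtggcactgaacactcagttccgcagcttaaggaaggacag
The half-site of Bax began 201 bases before the start, that of Mdm2 186 bases and that of Ccng1 185 bases before it. Cdkn1a had 2 half-sites, 73 and 51 bases before its upstream start, with a spacer of 12 bases. The window of its downstream start, chr17:29093519-29093768, held 0. A half-site lay in 7.18% of the 27025 promoters scanned (1 per symbol), and 2 half-sites at most 13 bases apart lay in 0.0518%. The members were scanned at every listed start, so these shares are not on the same footing. The windows of Sesn2, Bbc3, Gdf15, Phlda3 and Eda2r held no match, which says only that these letters were not in them. A match is a description of the sequence and no measurement of binding.

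Total counts per library lay between 39360167 and 44695002. Rtf2 stood at 44.8 to 57.7 CPM (counts per 1e6 counts, normalized by TMM) in the 6 WT libraries and at 5.44 to 6.66 CPM in the 6 RTF2-deficient libraries. The 12 fibroblast markers summed to between 13630 and 22005 CPM, with 2 of 12 called lower over both lines, beside 8.18% of all tested genes. Of the listed markers in the count table, 8 of 11 for blood cells and 6 of 8 for epithelium were under 1 CPM in every library. So were 4 of 6 for endothelium and 5 of 9 for neural and muscle cells. Among these were Ptprc, Adgre1, Cd3e, Pecam1, Cdh5, Epcam, Krt5, Krt14, Sox10 and Myog. Cdh1, Krt18, Kdr, Tek, Sox2, Tubb3, Nes and Myod1 of the same lists reached 1 CPM in at least 1 library. The lists of other cell types summed to 2.48 to 9.75 CPM (blood cells), 2.08 to 14.0 CPM (epithelium), 10.8 to 21.6 CPM (endothelium) and 219 to 561 CPM (neural and muscle). In line 1 the endothelial sum was 10.8 to 14.8 CPM in WT and 17.7 to 21.6 CPM in RTF2-deficient MEFs, and the epithelial sum was 2.08 to 2.39 and 2.79 to 4.54 CPM. In line 2 the genotypes overlapped in both sums. The endothelial sum there was 13.3 to 15.6 CPM in WT and 14.2 to 19.0 CPM in RTF2-deficient MEFs, and the epithelial sum 6.87 to 9.70 and 9.42 to 14.0 CPM. The blood cell sum in line 2 was 7.01 to 9.75 CPM in WT and 4.86 to 6.03 CPM in RTF2-deficient MEFs, with no overlap. There 1 of 3 tested blood cell markers was called lower (7.03% of all genes). In line 1 the blood cell sums overlapped, at 2.48 to 3.70 CPM in WT and 2.72 to 3.41 CPM in RTF2-deficient MEFs. Over both lines 2 of 5 tested epithelial markers and 1 of 2 endothelial markers were called higher, beside 4.98% of all tested genes. Called lower was 1 of 4 neural and muscle markers, beside 8.18% of all tested genes. Of 3 blood cell markers 0 were called by edgeR, with 1 at an unadjusted p under 0.05 (28.5% of all genes) and 0 in DESeq2 (19.3%). The part of these lists in the members' values was not tested. In WT line 2, Xist was at 0.0217 to 0.132 CPM and Ddx3y at 91.8 to 107 CPM, as in male cells, while the other 9 libraries had Xist at 103 to 173 CPM, so in line 2 genotype and sex cannot be told apart. Nor can fewer cells of a type and less RNA per cell be told apart in bulk libraries.

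The 10 members were counted in every library, from 304 counts for Gdf15 to 45860 for Ccng1. Levels of different genes were compared per kilobase of exon (GENCODE M21), as the median CPM per kb over 12 libraries. Ccng1 was highest at 222 CPM per kb, followed by Cdkn1a at 111, Phlda3 at 98.7, Bax at 71.8, Mdm2 at 42.7, Trp53inp1 at 18.1, Eda2r at 14.2, Sesn2 at 12.2, Bbc3 at 7.715 and Gdf15 at 5.87 CPM per kb. By this measure Ccng1 was at the 98.8th percentile of the tested genes and Gdf15 at the 53.3rd. By ranges pooled over the 12 libraries only Ccng1 was separate from its neighbour in the order. Its lowest library (191 CPM per kb) lay above the highest of Cdkn1a (159 CPM per kb). Cdkn1a and Phlda3, Phlda3 and Bax, Bax and Mdm2, Mdm2 and Trp53inp1, and each later pair overlapped over the 12 libraries. The order of the genes within each single library was not compared, so pooled overlap does not leave a pair unordered there.

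RTF2-deficient and WT MEFs differed in 1 of the 10 members. Bax was lower in RTF2-deficient MEFs of both lines, and no member was called higher. Over both lines 8.18% of all tested genes were called lower and 4.98% higher at an adjusted p under 0.05, so 1 of 10 lower is close to the background. At an unadjusted p under 0.05 stood 2 members and 28.5% of all tested genes, and DESeq2, at its own adjusted p under 0.05, called 1 member and 19.3% of all genes. These 2 shares are the background of the counts by either rule over both lines. No member passed a log2 fold change of 1 in size as well, a threshold that 1.72% of all genes passed. All 10 log2 fold changes were below 0, with a median of -0.12, beside 49.6% of tested genes below 0 and a median over all genes of 0.00194. Without Bax the median of the other 9 was -0.11. Leaving out WT line 1 replicate 1 brought the median of the 10 to -0.04, WT line 2 replicate 1 likewise to -0.04, and RTF2-deficient line 2 replicate 3 to -0.20. The signs are not independent, since the members rose and fell together between sister libraries, and those of Gdf15, Eda2r, Mdm2 and Phlda3 turned in 8, 7, 2 and 1 of 22 other settings.

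Bax (Entrez Gene 12028, chr7:45461697-45466898, minus strand) encodes the apoptosis effector that forms pores in the outer mitochondrial membrane. In line 1 its level was 141, 134 and 133 CPM in the WT libraries and 77.4, 72.9 and 70.8 CPM in the RTF2-deficient libraries. In line 2 it was 159, 165 and 139 CPM in WT and 81.4, 73.6 and 93.1 CPM in RTF2-deficient MEFs. Every RTF2-deficient library was thus below every WT library, with no overlap of the 6 and 6, a separation that 4.41% of all tested genes showed in this direction. Bax fell by 0.89 on the log2 scale over both lines (SE 0.0635, 95% interval -1.03 to -0.75, adjusted p = 6.56e-06 in edgeR's quasi-likelihood test). On the linear scale it fell by 46.2%. Ranked by p-value it was gene 19 of the 14263 tested. Its log2 fold change was -0.88 in line 1 (SE 0.0937, adjusted p = 0.000975) and -0.90 in line 2 (SE 0.0937, adjusted p = 0.000273), and the difference between the lines was -0.02 (SE 0.131, adjusted p = 0.998). With the 3 libraries of each group summed to 1 sample the log2 fold change was -0.89 and the adjusted p 0.0764, a fit of 4 samples and 3 terms in which Rtf2 was not called either. Without the library of highest interferon score in each group (a choice made after seeing the data) it was -0.94 (adjusted p = 0.000147).

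Genes beside Bax on the chromosome were read for comparison. Within 100 kb on either side 16 neighbours were listed and 10 tested, and edgeR called 0 of them (lowest adjusted p = 0.0861), while 3 had an unadjusted p under 0.05 (28.5% of all genes) and DESeq2 called 1 (19.3%). Their log2 fold changes lay between -0.92 and 0.06. Ftl1, the ferritin light chain gene next to Bax, had 0.06 (SE 0.127, adjusted p = 0.785). Dhdh, a dehydrogenase gene on the other side, had -0.81 (SE 0.289, adjusted p = 0.0865). GENCODE M21 places the gene model Gm45808 over 915 bases of Bax on the same strand, and reads from that stretch cannot be told apart. Other members have overlaps too, Sesn2 with Gm12981 over 6089 bases on the same strand and Cdkn1a with AC167363.2 over 1046 bases on the opposite strand.

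**Figure D1:**
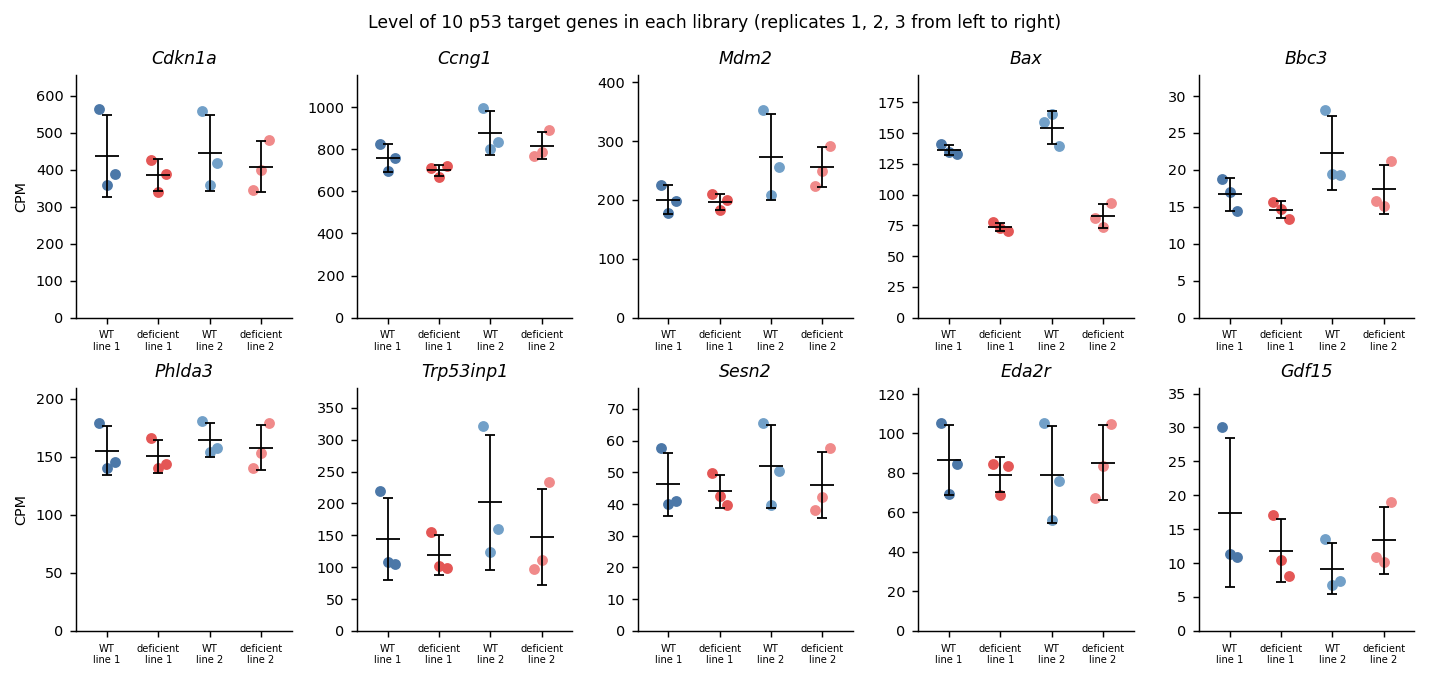
Level of each of the 10 p53 target genes in CPM (vertical axis, from 0), with 1 point per library, replicates 1 to 3 from left to right within each of the 4 groups, and bars for the mean ± SD (n = 3). Bax is the gene whose RTF2-deficient points (70.8 to 93.1 CPM) all lie below the WT points (133 to 165 CPM), and in the other 9 panels the genotypes overlap.

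The other apoptosis genes among the members did not pass the test. Bbc3 (Entrez Gene 170770, chromosome 7) encodes PUMA, a BH3-only protein that activates Bax. Its level was 18.7, 16.9 and 14.4 CPM in WT line 1 and 15.7, 14.7 and 13.4 CPM in RTF2-deficient line 1. In line 2 WT libraries had 28.1, 19.4 and 19.3 CPM and RTF2-deficient libraries 15.8, 15.1 and 21.2 CPM. The genotypes overlapped in both lines. The log2 fold change was -0.28 (SE 0.121, 95% interval -0.54 to -0.01), with an unadjusted p of 0.0425 and an adjusted p of 0.159. Bbc3 thus came second among the members by p-value without passing, and its value came to -0.17 when replicate 1 of WT line 2 was left out.

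Phlda3 (Entrez Gene 27280, chromosome 1), whose protein competes with Akt for membrane lipids, came out close between genotypes. WT libraries had 179, 141 and 145 CPM in line 1 and 181, 154 and 158 CPM in line 2. RTF2-deficient libraries had 167, 140.2 and 144 CPM in line 1 and 141, 153 and 179 CPM in line 2. The log2 fold change of -0.05 (SE 0.0822, adjusted p = 0.708) has a 95% interval from -0.23 to 0.13. Eda2r (Entrez Gene 245527, chromosome X) encodes a receptor of the TNF receptor family for ectodysplasin A2. It stood at 105, 69.6 and 84.8 CPM in WT line 1 and at 84.6, 69.1 and 83.8 CPM in RTF2-deficient line 1. WT line 2, the male line by its X- and Y-linked genes, had 105, 56.1 and 76.2 CPM, overlapping with 67.1, 83.7 and 105 CPM in RTF2-deficient line 2. Eda2r had a log2 fold change of -0.01 (SE 0.161, 95% interval -0.36 to 0.34, adjusted p = 0.974).

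The 2 cell cycle genes among the members overlapped between genotypes. Cdkn1a (Entrez Gene 12575, chromosome 17) encodes p21, the CDK inhibitor through which p53 arrests cells in G1. In line 1 it was at 563, 358 and 389 CPM in WT and 426, 340.2 and 388 CPM in RTF2-deficient MEFs. In line 2 the values were 557, 359 and 418 CPM in WT and 344, 398 and 480.2 CPM in RTF2-deficient MEFs. Apart from replicate 1, the WT libraries of each line lay within the RTF2-deficient range. Its log2 fold change was -0.16 (SE 0.138, 95% interval -0.46 to 0.15, adjusted p = 0.488), and it was -0.04 when replicate 1 of WT line 1 was left out and -0.07 when that of WT line 2 was, with a range from -0.22 to -0.04 when 1 library was left out. Ccng1 (Entrez Gene 12450, chromosome 11), the gene for cyclin G1, which recruits a phosphatase to Mdm2, was the steadiest target after Bax by its SD within groups. It stood at 827, 696 and 758 CPM in WT line 1 and 710.4, 669.8 and 719 CPM in RTF2-deficient line 1. In line 2 the WT libraries had 996, 801 and 835 CPM and the RTF2-deficient libraries 770.2, 789.7 and 890.1 CPM. The log2 fold change was -0.11 (SE 0.0715, 95% interval -0.27 to 0.04, adjusted p = 0.329), and between -0.14 and -0.06 with 1 library left out, the upper end when it was replicate 1 of WT line 2.

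Mdm2 (Entrez Gene 17246, chromosome 10), the ubiquitin ligase of p53 and its negative feedback, was close between genotypes. In line 1 it was at 226, 177 and 199 CPM in WT and 209, 182 and 199 CPM in RTF2-deficient MEFs. Line 2 had 353, 208 and 256 CPM in WT and 224, 249.8 and 291 CPM in RTF2-deficient MEFs. The lowest library of line 2 had 208 CPM and the highest of line 1 had 226 CPM, so the lines overlapped slightly. Between genotypes the log2 fold change was -0.06 (SE 0.118, 95% interval -0.32 to 0.20, adjusted p = 0.771).

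The remaining members, Sesn2, Trp53inp1 and Gdf15, did not pass the test, and the last pair had the widest spread between sister libraries of all members. Sesn2 (Entrez Gene 230784, chromosome 4) encodes sestrin 2, a leucine sensor that restrains mTORC1. It stood at 57.7, 40.1 and 41.0 CPM in WT line 1 and 49.8, 42.6 and 39.8 CPM in RTF2-deficient line 1. Line 2 had 65.6, 39.7 and 50.4 CPM in WT and 38.1, 42.3 and 57.8 CPM in RTF2-deficient MEFs. Sesn2 had a log2 fold change of -0.12 (SE 0.145, 95% interval -0.44 to 0.19, adjusted p = 0.615), with overlap of the genotypes in both lines. It came to -0.02 when replicate 1 of WT line 2 was left out and to -0.03 when that of WT line 1 was, and ranged from -0.19 to -0.02 with 1 library left out.

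Trp53inp1 (Entrez Gene 60599, chromosome 4) encodes a nuclear and autophagy protein that promotes p53 phosphorylation. Its values were 219, 109 and 105 CPM in WT line 1 and 156, 103 and 99.3 CPM in RTF2-deficient line 1. They were 321, 123 and 159.7 CPM in WT line 2 and 96.4, 110.5 and 233 CPM in RTF2-deficient line 2. A single library of each group stood well above its sisters, up to 2.60 times the lowest in WT line 2. The log2 fold change was -0.37 (SE 0.298, 95% interval -1.02 to 0.28, adjusted p = 0.444), and its interval allows a fall as large as that of Bax. The value rests on single libraries, since removing replicate 1 of WT line 2 gave -0.13, removing that of WT line 1 gave -0.18, and the lowest value with 1 library left out was -0.57. Gdf15 (Entrez Gene 23886, chromosome 8), a secreted stress cytokine of the TGF-beta family, was at 30.1, 11.3 and 10.9 CPM in WT line 1 and at 17.1, 10.4 and 8.07 CPM in RTF2-deficient line 1. Line 2 had 13.5, 6.70 and 7.37 CPM in WT and 10.8, 10.1 and 19.1 CPM in RTF2-deficient MEFs. Here the lines pointed in opposite directions, with -0.56 (SE 0.452, adjusted p = 0.686) in line 1 and 0.54 (SE 0.454, adjusted p = 0.481) in line 2. The difference between the lines, 1.10 (SE 0.640, adjusted p = 0.777), did not pass the test, and over both lines Gdf15 had -0.01 (SE 0.351, 95% interval -0.78 to 0.75). With 1 library left out it ranged from -0.21, without RTF2-deficient line 2 replicate 3, to 0.35, without WT line 1 replicate 1.

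**Figure D2:**
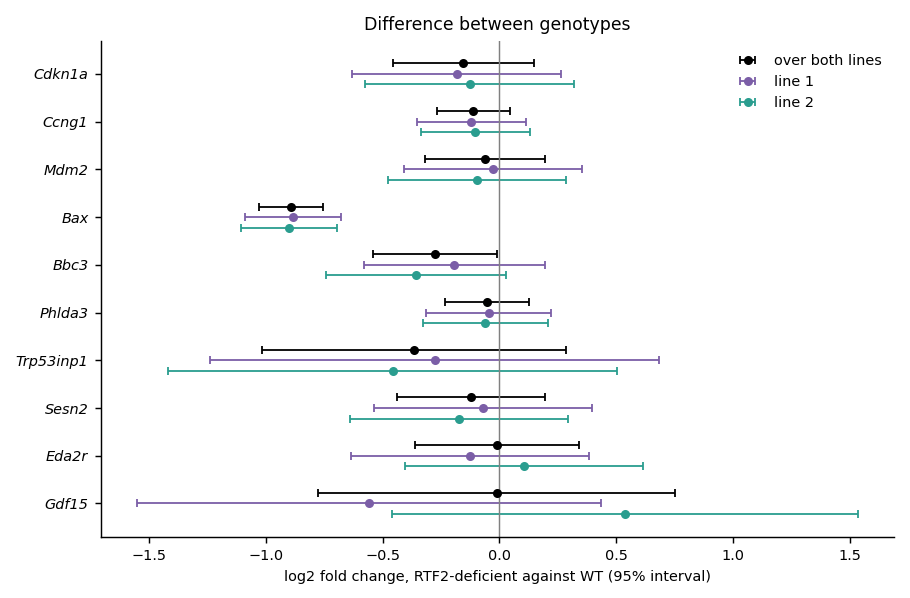
Log2 fold change of each member, RTF2-deficient against WT (horizontal axis), over both lines, in line 1 and in line 2, as points with 95% intervals from edgeR. The 3 intervals of Bax lie below 0, at -0.89, -0.88 and -0.90, while those of the other 9 genes cross 0 except for Bbc3 over both lines, whose adjusted p was 0.159.

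Within each line the count was the same. In line 1, Bax was the 1 member called lower and 0 were called higher, where 2.52% of all tested genes were lower and 0.680% higher. Within line 1, where same-numbered WT and RTF2-deficient libraries deviated together, 8 of 10 members (all but Mdm2 and Sesn2) were lower in the RTF2-deficient library of all 3 pairs, as were 28.4% of all tested genes, and with the pair as a term in that line Bax was still the 1 member called, beside 3.65% of all genes. In line 2, Bax was again the 1 member called lower, with 7.03% of all genes lower and 5.42% higher. Below 0 were 10 of 10 members in line 1, with a median of -0.16, and 8 of 10 in line 2, with a median of -0.11. These values moved when the library of highest interferon score in each group was left out. Then 8 of 10 were below 0 in line 1, with a median of -0.05, and 7 of 10 in line 2, with a median of -0.08. The genotype effect differed between lines in 0 members in edgeR's interaction test, with 1.29% of all genes called, 0 members at an unadjusted p under 0.05 (8.49% of all genes) and 0 in DESeq2 (2.87%). Without the library of highest interferon score in each group, Gdf15 (0.57, SE 0.141, adjusted p = 0.0253) and Trp53inp1 (-0.45, SE 0.124, adjusted p = 0.0370) passed as well in line 2, where 8.84% of genes were then called higher and 12.1% lower. The libraries left out were the highest of their group for both genes, so this choice narrows their spread by construction (SE of Gdf15 in line 2 from 0.454 to 0.141).

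Between the WT lines, 0 of 10 members were called by edgeR, with 14.0% of all genes called, and DESeq2 called 0 too, beside 19.3% of all genes. At an unadjusted p under 0.05 stood 2 members, beside 28.1% of all tested genes. Mdm2 was higher in WT line 2 by 0.44 (SE 0.173, adjusted p = 0.120) and Bbc3 by 0.42 (SE 0.175, adjusted p = 0.146), neither past the threshold. Leaving out WT line 2 replicate 2, the library with the lowest Mdm2 of its group, brought Mdm2 past it, beside 2203 of 14474 tested genes. Same-numbered WT libraries of the lines deviated together, and with that number as a term for the WT libraries, a choice made after seeing the data, Mdm2 passed at 0.41 (SE 0.113, adjusted p = 0.0370), with 15.8% of all genes called. Gdf15 was at -0.92 (SE 0.455, adjusted p = 0.214) and passed at -0.66 (adjusted p = 0.0178) without the library of highest interferon score in each group, again with its highest libraries removed. In that fit 6.88% of all genes were called higher and 7.26% lower between the WT lines. The sex difference between the WT lines cannot be told apart from the line.

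The members moved together between sister libraries. WT line 1 replicate 1 was the highest of its group for 10 of 10 members, where 38.1% of all tested genes were highest in that library. RTF2-deficient line 1 replicate 1 was highest for 9 of 10 (40.3% of all genes), Ccng1 being the exception. WT line 2 replicate 1 was highest for 9 of 10 (40.6% of all genes), Bax being the exception. RTF2-deficient line 2 replicate 3 was highest for 10 of 10 (42.8% of all genes). The group of highest libraries thus held replicate 1 in 3 groups and replicate 3 in the other. These libraries were singled out from their values, so no test was made of them.

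The size of this movement differed among members. From lowest to highest sister library Trp53inp1 spanned 1.57- to 2.60-fold and Gdf15 1.88- to 2.76-fold in the 4 groups. Cdkn1a spanned 1.25- to 1.57-fold and Mdm2 1.15- to 1.69-fold. Ccng1 spanned 1.07- to 1.24-fold and Bax 1.06- to 1.27-fold. The SD within groups on the log2 scale was 0.620 for Gdf15 and 0.606 for Trp53inp1, at the 92.8th and 92.3rd percentile of tested genes, against 0.114 for Bax at the 25.5th percentile. By this SD over all groups Bax varied least of the members, while by the span Ccng1 was narrower in both RTF2-deficient groups and Phlda3 in WT line 2.

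Some other lists were also at their extremes in these libraries. The median of 18 interferon-stimulated genes was 4.07, 0.99 and 1.69 log2 CPM in the replicates of WT line 1 and 1.87, 0.52 and 0.95 log2 CPM in RTF2-deficient line 1. It was 8.62, 4.88 and 6.80 log2 CPM in WT line 2 and 1.71, 3.50 and 7.27 log2 CPM in RTF2-deficient line 2. In each group the library with the highest interferon score was the one with most members at their highest. The median of 30 cell cycle genes repressed through p21 and the DREAM complex was lowest in that library in 3 groups, at 6.81, 6.55 and 6.58 log2 CPM, and in RTF2-deficient line 1 it was 6.86 log2 CPM there and 6.85 log2 CPM in replicate 2. ATF4 target genes, which answer amino acid and endoplasmic reticulum stress, had their highest median in it in 3 groups, at 7.27, 7.26 and 6.88 log2 CPM, but not in WT line 2 (6.37 log2 CPM, against 6.57 in replicate 3). Of 56 further p53 targets, 36, 33, 39 and 38 were highest in it, in the order WT line 1, RTF2-deficient line 1, WT line 2 and RTF2-deficient line 2. Their median was highest in it in the latter 3 groups, at 5.43, 5.81 and 5.65 log2 CPM, but lowest in it in WT line 1, at 5.32 log2 CPM against 5.37 and 5.41. The p53 gene itself did not go with it. Trp53 was at its lowest in that library in 3 groups, at 134, 141 and 156 CPM, and at its highest in WT line 2, at 177 CPM. The part of interferon signalling, stress or growth state in the members' spread was not tested.

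**Figure D3:**
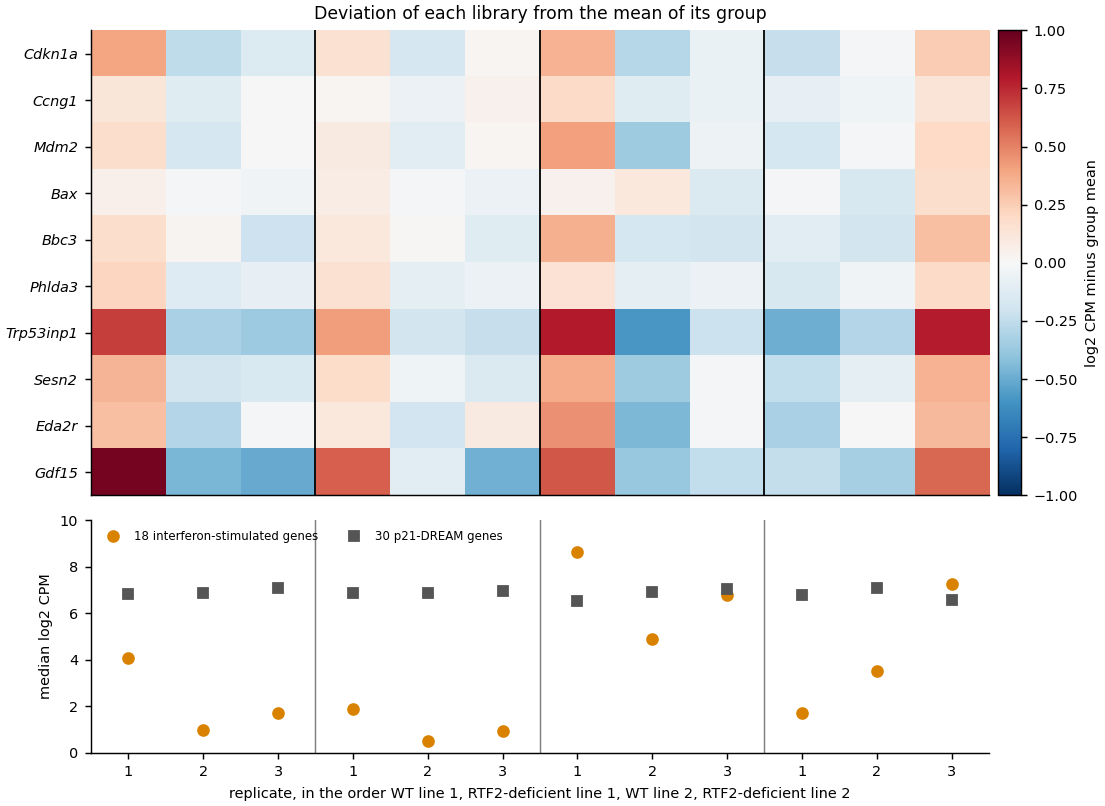
Upper panel, difference of each library from the mean of its group in log2 CPM (colour, red above and blue below) for the 10 members (rows), with the 4 groups separated by lines. Lower panel, median log2 CPM of 18 interferon-stimulated genes (circles) and 30 p21-DREAM genes (squares) in the same libraries, where the circles peak in replicate 1, 1, 1 and 3 of the groups, the columns in which nearly all members are red.

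The genes whose pattern was most like Cdkn1a over the 12 libraries were sought among 9280 genes with a mean above 10 CPM, by the root mean square difference of centred log2 CPM. They were Susd6 (0.0826), the member Sesn2 (0.0925) and Ccdc71l (0.104). For Mdm2 they were Gfer (0.0897), Cpped1 (0.0996) and Ccp110 (0.100). The measure spans both genotypes, so genes this near to an uncalled member share its small difference. That none of these 6 genes was called between genotypes follows from the selection. Bax was 0.438 from Cdkn1a and 0.4796 from Mdm2 by the same measure, and its nearest member was Bbc3 at 0.355. These distances include the fall of Bax between genotypes.

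Trp53 and Mdm4 did not pass the test between genotypes, while 3 regulators of p53 did. Of 16 tested regulators, Trp53 included, 2 were called higher and 1 lower, beside 4.98% of all tested genes higher and 8.18% lower, and the median log2 fold change was -0.03. At an unadjusted p under 0.05 stood 5 of the 16, near the 28.5% of all genes, and DESeq2 called 4, near its 19.3%. Trp53 stood at 134 to 155 CPM in WT line 1 and 141 to 161 CPM in RTF2-deficient line 1. In line 2 it stood at 164 to 177 CPM in WT and 156 to 172 CPM in RTF2-deficient MEFs. The groups overlapped, with a log2 fold change of -0.01 (SE 0.0550, 95% interval -0.13 to 0.11, adjusted p = 0.935). Mdm4, the p53 inhibitor related to Mdm2, was at 50.6 to 82.3 CPM in WT and 57.4 to 71.0 CPM in RTF2-deficient libraries, with -0.04 (SE 0.106, adjusted p = 0.826).

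Among the regulators that changed, Kat5 encodes TIP60, an acetyltransferase that acts on p53 and on histones. It stood at 33.6, 33.1 and 33.1 CPM in WT line 1 and 25.1, 23.7 and 24.4 CPM in RTF2-deficient line 1. Line 2 had 31.1, 33.4 and 30.8 CPM in WT and 20.4, 21.2 and 26.8 CPM in RTF2-deficient MEFs. All 6 RTF2-deficient libraries were below all 6 WT libraries, and Kat5 fell by 0.46 on the log2 scale (SE 0.0658, adjusted p = 0.000755). It passed in line 1 (adjusted p = 0.0337) and in line 2 (adjusted p = 0.00937) too. Crebbp, the acetyltransferase CBP, rose by 0.56 (SE 0.0945, adjusted p = 0.00240; 0.0790 in line 1 and 0.0164 in line 2), from 34.6 to 50.8 CPM in WT to 58.0 to 75.8 CPM in RTF2-deficient libraries. Hipk2, a kinase of p53, rose by 0.68 (SE 0.204, adjusted p = 0.0457), with overlap of the genotypes. Its log2 fold change was 0.24 in line 1 (adjusted p = 0.744) and 1.13 in line 2 (adjusted p = 0.00924), where sex goes with genotype, and the difference between the lines was 0.89 (SE 0.321, adjusted p = 0.360). Rnaseh2c lies over 4006 bases of the Kat5 locus on the opposite strand, and whether counting used strand is not given in the sources used here.

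Of 57 further p53 targets 56 were tested, 3 were called higher and 3 lower, beside 4.98% and 8.18% of all tested genes, and the median log2 fold change was -0.05. At an unadjusted p under 0.05 stood 15 of the 56, near the 28.5% of all genes, and DESeq2 called 8, beside its 19.3% of all genes. By p-value the first 3 were Fdxr, Pmaip1 and Siva1. Fdxr, the mitochondrial ferredoxin reductase, was at 4.35, 5.55 and 4.92 CPM in WT line 1 and 3.10, 3.19 and 2.78 CPM in RTF2-deficient line 1. Line 2 had 6.69, 6.79 and 5.86 CPM in WT and 3.10, 3.59 and 3.98 CPM in RTF2-deficient MEFs. Fdxr fell by 0.78 (SE 0.101, adjusted p = 0.000400), with no overlap of the 6 and 6 libraries, and passed in line 1 (adjusted p = 0.0248) and line 2 (adjusted p = 0.00342). Siva1, a proapoptotic gene, fell by 0.38 (SE 0.0947, adjusted p = 0.0227). Pmaip1, which encodes the BH3-only protein NOXA, rose by 0.41 (SE 0.0833, adjusted p = 0.00791), from 120.4 to 163 CPM in WT to 162 to 207 CPM in RTF2-deficient libraries. The remaining calls, named after their values were seen, were Pltp (-1.35, SE 0.347), a lipid transfer protein, Plk3 (0.38, SE 0.105), a stress kinase, and Sfn (0.60, SE 0.180), the 14-3-3 sigma gene that p53 uses in G2 arrest. Sfn was at 34.7 to 70.3 CPM in WT line 1 and 90.5 to 117 CPM in RTF2-deficient line 1 (adjusted p = 0.0218), but had 0.20 in line 2 (adjusted p = 0.558), with a difference of -0.80 in log2 fold change between the lines (SE 0.280, adjusted p = 0.326). Pltp passed in line 2 (adjusted p = 0.0379) and not in line 1 (adjusted p = 0.424), Pmaip1 likewise (adjusted p = 0.0299 and 0.186), and neither Siva1 (adjusted p = 0.343 in line 1 and 0.0580 in line 2) nor Plk3 (0.438 and 0.0665) passed in a single line. Of 22 other settings, the call was lost in 11 for Sfn, 9 for Plk3, 4 for Siva1, 4 for Pltp and, among the regulators and relatives, 13 for Hipk2, 8 for Cdkn1c and 5 for Shmt2 of the ATF4 targets. The calls of Fdxr, Pmaip1, Kat5, Crebbp and E2f1 were lost in 1 setting, the fit on summed groups. Without RTF2-deficient line 2 replicate 1, and likewise without replicate 2 of that group, only Fdxr and Pmaip1 of the 6 stayed called. Without the library of highest interferon score in each group, 12 were called, the 6 among them, beside 15.2% of all genes. Between the WT lines 11 of the 56 were called, 10 of them higher in WT line 2, beside 14.0% of all genes called.

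**Figure D4:**
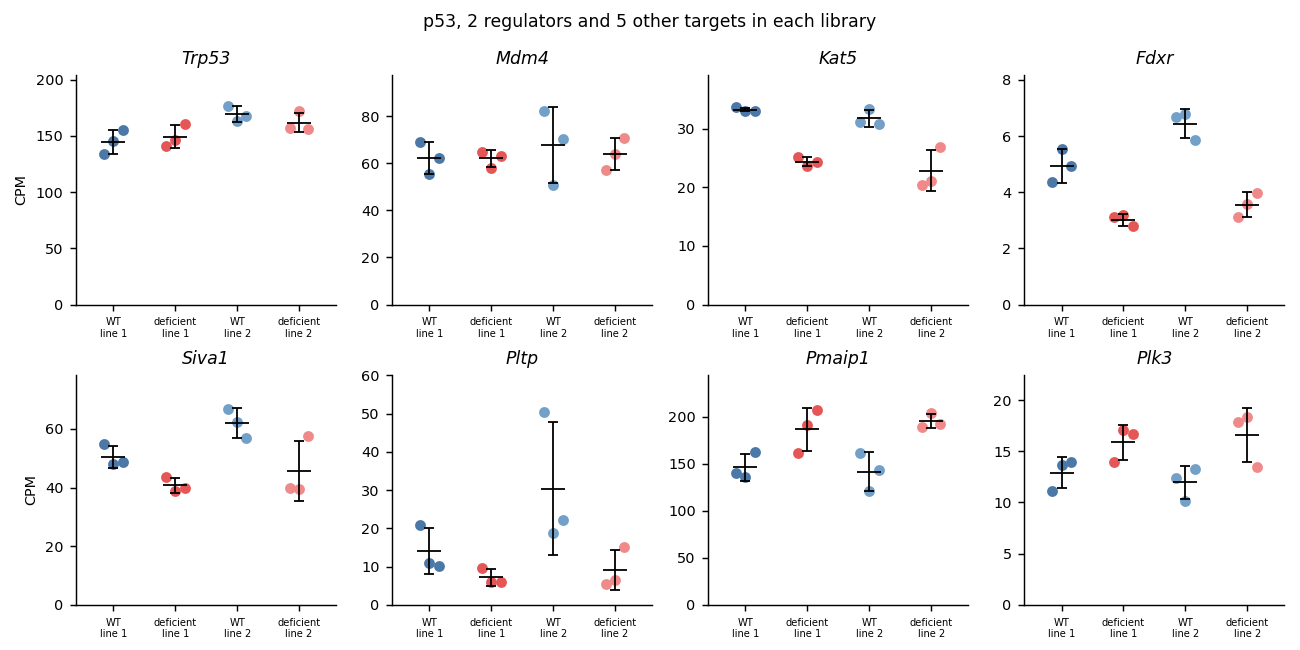
Level in CPM (vertical axis, from 0) of Trp53, its regulators Mdm4 and Kat5, and the targets Fdxr, Siva1, Pltp, Pmaip1 and Plk3, with 1 point per library and bars for the mean ± SD (n = 3) in the 4 groups. Trp53 and Mdm4 overlap between genotypes, Kat5 and Fdxr lie lower in all 6 RTF2-deficient libraries, and Pmaip1 lies higher in RTF2-deficient MEFs by 0.41 on the log2 scale.

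Of 17 tested relatives of the members (such as other CDK inhibitors, BCL-2 family genes and sestrins) 2 were called higher, Pmaip1 and Cdkn1c, beside 4.98% of all tested genes, and the median was 0.01. DESeq2 called 3 of them, beside 19.3% of all genes, and 3 had an unadjusted p under 0.05, beside 28.5%. Cdkn1c, the CDK inhibitor p57, rose by 1.01 (SE 0.272, adjusted p = 0.0306). It had 0.61 in line 1 (adjusted p = 0.528), with overlapping genotypes, and 1.40 in line 2 (adjusted p = 0.0275), where sex goes with genotype, and the difference between the lines was 0.80 (SE 0.502, adjusted p = 0.823). Cdkn1b, the CDK inhibitor p27, had 0.31 (SE 0.107, adjusted p = 0.0749). Of 30 genes that p21 represses through DREAM, E2f1 was the 1 gene called by edgeR, with a log2 fold change of -0.30 (SE 0.0530, adjusted p = 0.00314), beside 8.18% of all tested genes called lower, and the median was -0.03. DESeq2 called 1 as well, and 3 had an unadjusted p under 0.05. It was at 50.7 to 57.6 CPM in WT and 39.3 to 45.6 CPM in RTF2-deficient libraries. Prc1 (-0.27, SE 0.105, adjusted p = 0.116), a gene of the mitotic spindle midzone, and Mcm2 (-0.12, SE 0.0485, adjusted p = 0.141), of the replicative helicase, did not pass.

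Of 19 ATF4 targets, Shmt2 was the 1 gene called by edgeR, with a log2 fold change of -0.32 (SE 0.0812, adjusted p = 0.0234), beside the same 8.18% of all genes lower, and the median was -0.14. DESeq2 called 2, and 3 had an unadjusted p under 0.05. Shmt2 makes glycine and one-carbon units in mitochondria. Cebpb, a stress transcription factor, had -0.70 (SE 0.221, adjusted p = 0.0572), and Slc7a5, a leucine transporter, had 0.21 (SE 0.0793, adjusted p = 0.101). The 18 interferon-stimulated genes had a median log2 fold change of -1.64, with 0 called by edgeR, 2 at an unadjusted p under 0.05 and 1 called by DESeq2. Their summed level was 119 to 549 CPM in WT line 1 and 113 to 219.8 CPM in RTF2-deficient line 1. In line 2 it was 802 to 8313 CPM in WT and 172 to 3160.1 CPM in RTF2-deficient MEFs.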

How the data were processed

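RNA of 12 MEF libraries was sequenced by the authors as single-end reads. The deposited values are raw read counts, not normalized, listed by Entrez Gene number with 1 column per library, and every column was matched to a sample by its label. The methods name Salmon, tximport and DESeq2, while HTSeq stands in the processing notes of the submitters, so which tool made the counts is not settled. Both name the mm10 build. Whether counting used strand is not given in the sources used here, and reads of overlapping genes may be shared. RefSeq symbols were found for 24045 of the 24100 identifiers, and 4418 genes had no count. Pairs of libraries within groups differed beyond sampling noise (chi-square over degrees of freedom 21.7 to 191).

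Genes past filterByExpr were scaled by TMM factors, and the quasi-likelihood test (glmQLFit, glmQLFTest) was run in edgeR 4.0.16 (R 4.3.3, limma 3.58.1), with terms for line and genotype over all 12 libraries. Contrasts within lines used a layout of the 4 groups. A call needed a Benjamini-Hochberg adjusted p under 0.05 over all tested genes. Log2 CPM used a prior count of 2. Differences are RTF2-deficient minus WT and intervals are 95%. The code of the fit was checked on simulated counts, drawn independently for each library. They held no line differences and no deviations shared between libraries or genes, so the check says nothing about the calls in these data. Exon lengths came from GENCODE M21 and promoters from RefSeq GRCm38.p6.

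Named are the 10 members, Rtf2, Trp53, Mdm4 and the 3 genes of lowest p in each other list of p53 biology (cell type and interferon lists by summed level), plus the 3 nearest patterns to Cdkn1a and Mdm2. Of the listed genes 2 were not found. The members and lists were chosen with earlier results of these data known. The alternatives replaced TMM by RLE or by upper-quartile factors, the filter by none or by 1 CPM in 6 libraries, and edgeR by DESeq2 1.42.0, or used a replicate block, no line term, summed libraries and each library left out. The labels give replicate numbers but no shared batch or day. Deviations of same-numbered WT and RTF2-deficient libraries from their group means correlated across genes at 0.62, 0.43 and 0.48 in line 1 and at -0.59, 0.17 and -0.28 in line 2, and those of the WT lines at 0.43, 0.41 and 0.30, so the numbers were taken to pair the libraries in line 1 and between the WT lines, and not in line 2. A fit without the library of highest interferon score in each group and fits with the replicate block in line 1 only or between the WT lines only were added after seeing the data.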

Additional observations from a re-analysis of the deposited data

How the results depend on the processing

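Bax was the 1 member called over both lines in 21 of 22 alternatives, the exception being the fit on summed groups (3 libraries added up to 1 sample), where 0 members and 0 further p53 targets were called in edgeR. There 3 members, 14 further targets and 18.2% of all genes tested had an unadjusted p under 0.05, and Rtf2 had -3.02 with an adjusted p of 0.0665, since 4 samples and 3 terms leave a single degree of freedom. Bax lay between -0.94 and -0.86 over all alternatives. Leaving out 1 library kept the count of members called at 1 over both lines and in each line. Between the WT lines it gave 0 to 1 (Mdm2, without WT line 2 replicate 2, beside 2203 of 14474 genes). Over both lines it gave 2 to 8 further p53 targets. Without the library of highest interferon score in each group, 3 members were called in line 2 (Bax, Gdf15 and Trp53inp1) and 1 between the WT lines (Gdf15). Of all genes, 8.84% were called higher and 12.1% lower in line 2, and 6.88% higher and 7.26% lower between the WT lines. Over both lines 12 further targets were called, beside 15.2% of all genes. The libraries left out were the highest of their group for Gdf15 and Trp53inp1, so leaving them out narrows the spread of both genes by construction. For the further targets the cause was not tested. The median log2 fold change of the members stayed between -0.20 and -0.04, and that of Rtf2 between -3.05 and -2.98.

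With the replicate number as a block in both lines, 1 member was called over both lines and in each line, 0 in the interaction and between the WT lines, and 4 further targets in place of 6. Of 14263 genes, this fit called 1646 over both lines, 357 in line 1, 1629 in line 2, 132 in the interaction and 1859 between the WT lines. The members' median was then -0.10 and Rtf2 -3.01. With the block in line 1 only, chosen after seeing the data, 1 member (Bax) was called over both lines and in each line, 0 in the interaction and between the WT lines, and 6 further targets, so it changed none of these counts. Of 14263 genes, it called 2123 over both lines, 521 in line 1, 2234 in line 2, 243 in the interaction and 2429 between the WT lines. With a block between the WT lines only, also chosen after seeing the data, 1 member (Mdm2) was called between them in place of 0, beside 15.8% of all genes. With the block in line 1 only the members' median was -0.11 and Rtf2 had -3.02.

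The limits are those of the design. Calls rest on sister libraries of 2 lines, WT line 2 differs in sex, and the wide spread of Trp53inp1 leaves a fall as large as that of Bax within its interval over both lines. The lowest count of a member in a library was 304.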
